A study of Mus musculus with 2207 samples.

Results

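The upper layer excitatory neurons of the mouse cortex are described here as they appear among single nuclei of wild-type (WT) and *Ehmt1* Δ/+ mice, the latter a model of Kleefstra syndrome with 1 deleted copy of *Ehmt1*. They were chosen by expression. Of 2207 nuclei, 1664 were labelled as neurons, and 1324 of these had more *Slc17a7*, the vesicular glutamate transporter of cortical excitatory neurons, than *Gad1*, the GABA-synthesizing enzyme of inhibitory neurons. Each excitatory nucleus was scored for 4 sets of 3 layer markers, as the mean of their z-scored log2(RPKM + 1) within its plate format, and the members were the nuclei with their highest score for *Cux2*, *Calb1* and *Otof*, 27% of the 1324 (95% exact Clopper-Pearson interval 24.6 to 29.4). The other excitatory nuclei fell, by their own highest score, into a layer 4/5a class (*Rorb*, *Rspo1*, *Scnn1a*), a layer 5 class (*Fezf2*, *Etv1*, *Bcl11b*) and a layer 6 class (*Foxp2*, *Tle4*, *Syt6*).

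Nuclei of the cortex, the frontal cortical region by the study's text, were sorted into 96-well or 384-well plates and each was sequenced by RamDA-seq, a full-length total RNA method for single cells. There were 6 pools, each from 3 male mice aged 14 weeks that had all received tamoxifen at 100 mg/kg 2 times from 3 weeks of age. The strain was C57BL/6 by the labels and C57BL6/J by the study's methods. The 96-well pools were WT (*Ehmt1* +/+) and Δ/+. The 384-well pools were, by their labels, WT and Δ/+, which carried the *Ehmt1* iTg transgene without *CamKII-CreER*, and iTg and Δ/+;iTg, which carried the same transgene with *CamKII-CreER*. The *Ehmt1* iTg transgene makes FLAG-tagged GLP, the protein of *Ehmt1*, from the *Rosa26* locus after Cre recombination, and *CamKII-CreER* is active in postnatal forebrain neurons, so any induced GLP depends on a nucleus having expressed that driver. The labels do not say which of the 3 mice a nucleus came from. Each pool therefore counted as 1 replicate (n = 6), and a p-value here measures only the spread between pools.

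Neurons of layers II and III connect cortical areas with each other, through axons that stay within the hemisphere or cross the corpus callosum, whereas deep layer neurons also project to thalamus, brainstem and spinal cord. *Cux1* and *Cux2* are homeobox transcription factors of the upper layers that shape dendrites and spines. GLP and its partner G9a place mono- and dimethyl marks on histone H3 lysine 9, which accompany gene repression.

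There were 51 members in the 96-well WT pool, 26.7% of its excitatory nuclei (exact interval 20.6 to 33.6), and 52 in the 96-well Δ/+ pool, 23.6% (18.2 to 29.8). In the 384-well plates there were 58 in WT (27.6%, 21.7 to 34.2), 80 in Δ/+ (31.6%, 25.9 to 37.7), 65 in iTg (29.5%, 23.6 to 36) and 51 in Δ/+;iTg (22.2%, 17 to 28.1). The Δ/+ pool was below WT in the 96-well plates and above it in the 384-well plates, and all 6 intervals overlap. The median read total of a member, recovered from the values, was between 342260 and 456437 reads in the 6 pools, against 319498 to 394311 in the other excitatory nuclei. These intervals hold the error of counting alone, and shares of sorted nuclei give no cell density in the tissue.

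The choice of members fixed their marker levels, which are given as a description without a test. *Cux2* was above 0 in 91.9% of members and in 55.3% of the other excitatory nuclei, *Calb1*, which encodes the calcium buffer calbindin, in 70.6% and 25%, and *Otof*, which encodes the calcium sensor otoferlin, in 55.7% and 9.62%. The mean *Cux2* level of members was 17.1 RPKM in the lowest pool, 46.2 in the median and 63 in the highest. *Cux2* was about as high in the layer 4/5a class (20.7, 42.8 and 51.4 RPKM), with medians of 1.28 and 0.60 RPKM in the layer 5 and layer 6 classes. *Otof* and *Calb1* set members apart from that class. *Otof* was at 11, 30.1 and 47.6 RPKM in members and had a median of 0.123 RPKM in the layer 4/5a class, and *Calb1* was at 3.56, 6.25 and 8.47 RPKM against a median of 2.35.

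**Figure D1:**
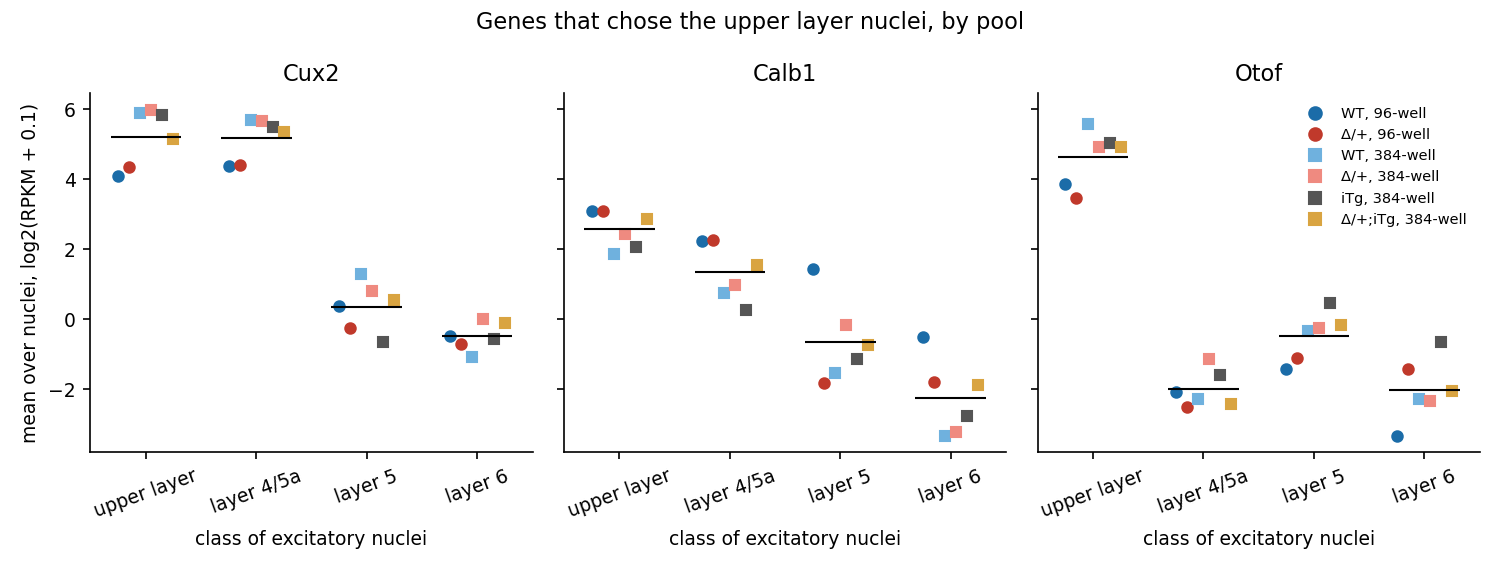
Mean level of *Cux2*, *Calb1* and *Otof* over the nuclei of a class, as log2(RPKM + 0.1), with 1 point per pool and a line at the mean of the 6 pools, in upper layer nuclei and the 3 other excitatory classes. *Cux2* lies at like levels in the upper layer and layer 4/5a nuclei, while *Otof* has a median of 30.1 RPKM in upper layer nuclei and medians under 1 RPKM in the other classes.

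Of the 3 own markers, 2 were above 0 in 160 members and 1 in 66, of which 53 had *Cux2* alone, and the rest had all 3. The median score was 0.759 and the median lead over the next best set 0.701. The 3 members nearest the limit led by 0.00248, 0.00394 and 0.00579, and the 3 nearest nuclei outside it missed by 0.00188, 0.00387 and 0.00497, so 86 members with a lead under 0.25 stand close to another class. *Slc17a7* was at 70.2 to 140 RPKM in members and *Gad1* at 0.330 to 2.25 RPKM. Some markers of the other sets were low in members. *Fezf2* had a median of 0.229 RPKM in members against 20.4 in the layer 5 class, and it was also at 17.6 in the layer 6 class. *Syt6* was at 0.153 against 29.3 RPKM in the layer 6 class, and *Rorb* at 2.55 against 19.6 RPKM in the layer 4/5a class. Others were often above 0, with *Tle4* in 68.6% of members (median 3.81 RPKM) and *Bcl11b* in 40.9% (3.06 RPKM).

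Genes that the choice did not use were compared between members and the other excitatory nuclei of the same pool, as the difference of log2(mean RPKM + 0.1), with limma over the 6 differences and Benjamini-Hochberg adjustment over 24864 genes. At an adjusted p of 0.05, 13.6% of the tested genes differed, 6.81% (1692) higher in members and 6.78% (1687) lower. In 1.38% of tested genes the 6 member values all lay above the 6 values of the other nuclei, and in 1.68% all below. The difference had 1 direction in all 6 pools for 21% of tested genes. The most raised genes included *Evc* and *Evc2*, a pair of ciliary Hedgehog pathway genes, and the Ras activator gene *Rasgrf2*. The most lowered genes were led by *Ighm*, *Slc12a4*, *H60b* and *Nxph3*, each of which had its highest median in the layer 6 class.

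*Evc2* and *Evc* encode partner proteins at the base of the primary cilium that are needed for the response to Hedgehog ligands. *Evc2* (mm10, chr5:37338499-37425055) was at 12.8, 22.3 and 30.1 RPKM in the lowest, median and highest member pool and at 2.15, 3.70 and 6.57 in the other excitatory nuclei. *Evc* (chr5:37289098-37336894) was at 7.86, 14.4 and 20 RPKM in members and 1.94, 2.99 and 3.99 in the others. For neither gene did the groups overlap, and the log2 difference was 2.53 (SE 0.16, adjusted p = 0.000404) for *Evc2* and 2.14 (SE 0.12, adjusted p = 0.000335) for *Evc*. The gene bodies lie head to head on opposite strands, 1604 bases apart, and do not overlap.

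*Rasgrf2*, which encodes a calcium-regulated exchange factor for Ras and Rac, had the highest level of the most raised genes. It was at 29.5, 41.7 and 49.9 RPKM in members and 6.65, 8.66 and 12.4 in the other excitatory nuclei, a log2 difference of 2.12 (SE 0.09, adjusted p = 0.000244). Its lowest member pool lay well above the highest pool of the other nuclei. *Stard8*, a gene for a GTPase-activating protein, was at 11.5, 15.4 and 25 RPKM in members and 2.07, 3.77 and 4.83 in the others, again with no overlap (log2 difference 2.08, adjusted p = 0.000335). Its difference was larger against each deep layer class alone, as given below. For *Evc2*, *Evc*, *Rasgrf2* and *Stard8* no value is given against the class that shares *Cux2*. Their pooled differences therefore do not show that members stand apart from that class.

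Among lower-expressed genes, *Kcnk13*, which encodes a two-pore potassium channel, was at 1.34, 2.54 and 3.46 RPKM in members against 0.173, 0.389 and 0.608 (log2 difference 2.43, adjusted p = 0.00201). *Ccbe1*, which encodes a secreted protein best known from lymphatic vessel growth, was at 1.41, 2.11 and 2.43 RPKM against 0.181, 0.348 and 0.626 (2.26, adjusted p = 0.00112). *Ptpn14*, a protein tyrosine phosphatase gene, was at 1.75, 2.17 and 5.61 RPKM against 0.229, 0.564 and 0.692. All 3 genes were higher in each member pool than in any pool of the other nuclei. *Itpkb*, an inositol trisphosphate kinase gene, *Baz1a*, which encodes a chromatin remodelling subunit, and *Ppp1r36*, a gene for a protein phosphatase 1 regulatory subunit, did not overlap between the groups either, with log2 differences of 2.07, 2.38 and 2.18.

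The pools of *Lrrc43*, which encodes a leucine-rich repeat protein, and of *Baiap3*, which encodes a C2 domain protein of dense-core vesicle traffic, overlapped between the groups. *Baiap3* was at 4.32, 8.68 and 24.9 RPKM in members against 1.02, 2.43 and 4.60 in the others (log2 difference 2.05, SE 0.42, adjusted p = 0.0211). Its spread among members was wide, and its adjusted p was above the threshold without the 96-well Δ/+ pool (0.0577), the 384-well WT pool (0.0621) or the iTg pool (0.0570). The other 23 of these 24 most raised and most lowered genes passed the threshold without any 1 pool.

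**Figure D2:**
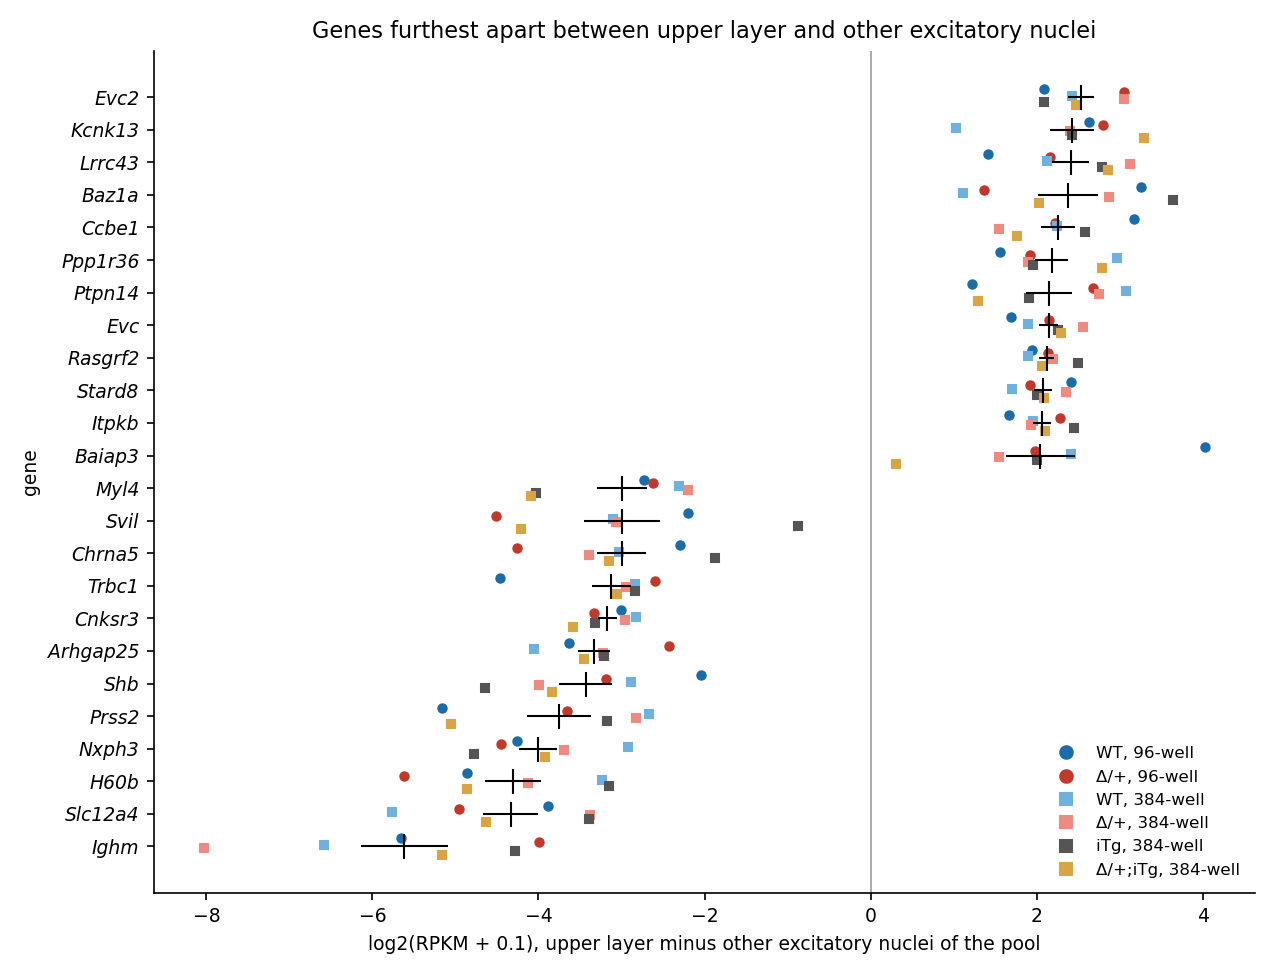
Difference in log2(RPKM + 0.1) between upper layer and other excitatory nuclei of the same pool, 1 point per pool, with the mean and its SE as a black mark and bar, for the 12 most raised and 12 most lowered genes. The means run from 2.05 to 2.53 for the raised and from -5.62 to -2.99 for the lowered genes, and each point lies on the side of its mean.

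*Ighm*, the constant region gene of the immunoglobulin mu heavy chain, differed most. It was at 0.0570, 0.583 and 1.88 RPKM in members and at 20.3, 33.3 and 40.9 RPKM in the other excitatory nuclei, a log2 difference of -5.62 (SE 0.52, adjusted p = 0.00118). Its median was 108.3 RPKM in the layer 6 class, 4.41 in the layer 5 class and 0.141 in the layer 4/5a class, so it was highest in the layer 6 class, and members did not pass the test against the layer 4/5a class (log2 difference 1.36, adjusted p = 0.0625). *H60b*, a gene for a ligand of a natural killer cell receptor, was listed at 0 in 4 of the 6 member pools, with 0.0794 RPKM in the highest, and was at 1.25, 2.23 and 4.8 RPKM in the others. *Nxph3*, which encodes a neurexin-binding secreted protein, was at 0.0301, 0.0974 and 0.393 RPKM in members and 2.16, 3.64 and 4.11 RPKM in the others (log2 difference -4.00, adjusted p = 0.000351). Both genes were separated from the other excitatory nuclei in every pool.

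The chloride cotransporter gene *Slc12a4* was lower by a log2 difference of -4.33, the adaptor gene *Shb* by -3.43, the GTPase-activating protein gene *Arhgap25* by -3.33 and the scaffold gene *Cnksr3* by -3.17. *Chrna5*, the accessory alpha5 subunit of nicotinic acetylcholine receptors, had a median of 0 RPKM in members and 0.866 in the others (-3.0, adjusted p = 0.00139). The actin-binding protein gene *Svil* and the myosin light chain gene *Myl4* differed by -3.0 and -2.99. *Prss2*, a trypsinogen gene, and *Trbc1*, a T cell receptor beta constant gene, differed by -3.75 and -3.12. These genes lie 13138 bases apart in a cluster of like sequences on chromosome 6 that may share reads, so their separate values are uncertain. Of these 12 genes only *Trbc1* (-0.90, adjusted p = 0.0301) and *Myl4* (-1.07, adjusted p = 0.0339) were also lower than in the layer 4/5a class.

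Against the layer 4/5a class, which shares *Cux2*, 14.8% of tested genes differed, 8.26% higher in members and 6.56% lower. The chitinase gene *Chia1* (log2 difference 3.83), the extracellular protease gene *Adamts16* (3.60), the adhesion molecule gene *Dscaml1* (3.44) and *Ptpn14* (3.42) were the most raised. Of the 12 genes most raised against all other excitatory nuclei, only *Ptpn14* was among them. *Ltbr*, the lymphotoxin beta receptor gene (-3.81), *Col15a1*, a collagen gene (-3.33), *Bglap3*, an osteocalcin family gene (-3.23), and *Fam83f* (-2.91) were the most lowered. *Bglap3* belongs to a family of near copies, so its value may share reads with the others.

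Against the layer 5 class, 9.87% of genes differed (5.05% higher, 4.81% lower), 2453 in all, and 1301 to 1674 when any 1 pool was left out. *Stard8* (3.55), *Ddit4l*, an inhibitor of TORC1 signalling (2.91), *Mamdc2* (2.80) and *Adamts16* (2.67) led the raised genes, and *Nxph3* (-4.34), the noncoding RNA gene *Mirt1* (-3.66), *Myzap* (-3.44) and *Svil* (-3.42) the lowered. *Adamts16* had an adjusted p of 0.0502 in this comparison without the 96-well Δ/+ pool. Against the layer 6 class, 22.7% of genes differed, 13.6% higher and 9.07% lower, and this split turned when each column was centred on its median (2823 higher and 3020 lower, against 3380 and 2256). *Car4*, a membrane-bound carbonic anhydrase gene (5.40), *Gpc6*, a glypican gene (4.85), *Stard8* (4.79) and *Rasgrf2* (4.66) were the most raised, and *Ighm* (-7.36), *Slc12a4* (-6.09), *H60b* (-6.02) and *Prss2* (-5.30) the most lowered. The 3 comparisons use the same member nuclei and are not independent of each other.

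Known layer genes outside the rule were counted as lists, each read against the 6.81% of all tested genes that were higher and the 6.78% that were lower. Of 20 tested layer II/III genes, 15 were higher in members and none lower, with a median log2 difference of 0.96 beside -0.02 over all tested genes. Of the 15, 8 did not overlap, beside 1.38% of all tested genes with every member value above the others. *Lamp5*, which encodes a lysosome-associated membrane protein of neurons, was at 20.1, 31.5 and 38 RPKM in members and 12.6, 14.1 and 18.4 in the others (1.03, adjusted p = 0.00421). *Cux1* was at 10.8, 15.2 and 16.8 RPKM against 6.88, 8.21 and 10.6 (0.73, adjusted p = 0.00229), and the adhesion genes *Nectin3* and *Mdga1* differed by 1.13 and 1.34. Values of *Lamp5*, *Cux1* and *Nectin3* did not overlap between the groups, and those of *Mdga1* did. The calls for *Unc5d*, a netrin receptor gene, and *Ddit4l* were lost without some single pools.

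Against the layer 4/5a class the same list had 8 genes higher, 4 lower and 8 that did not pass, with a median of 0.38. Of all tested genes 8.26% were higher and 6.56% lower in this comparison. *Cux1* (-0.37, adjusted p = 0.0450) and *Unc5d* (-0.63, adjusted p = 0.00676) were among the 4 lower genes, with the transcription factor gene *Pou3f2* (-0.70) and the semaphorin receptor gene *Plxnd1* (-0.66). *Mdga1* (3.41), *Adamts2*, a procollagen protease gene (3.16), *Agmat* (2.43) and *Matn2*, an extracellular matrix gene (2.04), were higher. Against the layer 6 class all 20 tested genes were higher, with a median of 2.54, beside 13.6% of all tested genes that were higher.

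Layer IV/Va genes outside the rule were lower in members in 5 of 7 cases and higher in none (median -1.15). They were *Deptor*, an mTOR inhibitor gene (-1.59), the scaffold gene *Whrn* (-1.52), *Plcxd2* (-1.15), *Il1rapl2* (-1.13) and the nuclear receptor gene *Rora* (-0.64). Of 11 layer VI genes, 6 were lower and none higher (median -1.54), among them *Hs3st4*, a heparan sulfate sulfotransferase gene, at 0.732, 1.86 and 3.51 RPKM in members and 8.64, 9.66 and 10.1 in the others (-2.39, adjusted p = 0.00308). *Ccn2* (-2.56), *Garnl3* (-1.88), *Col5a1* (-1.71) and *Thsd7b* (-0.93) were lower too. Of 12 layer V genes 2 were higher, the neuropeptide receptor gene *Qrfpr* (1.35) and *Vat1l* (0.82), and 3 were lower, the sulfatase gene *Sulf2* (-2.48), *Crym* (-1.27) and *Parm1* (-1.24). The calls for *Vat1l* and *Crym* were lost without some single pools.

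**Figure D3:**
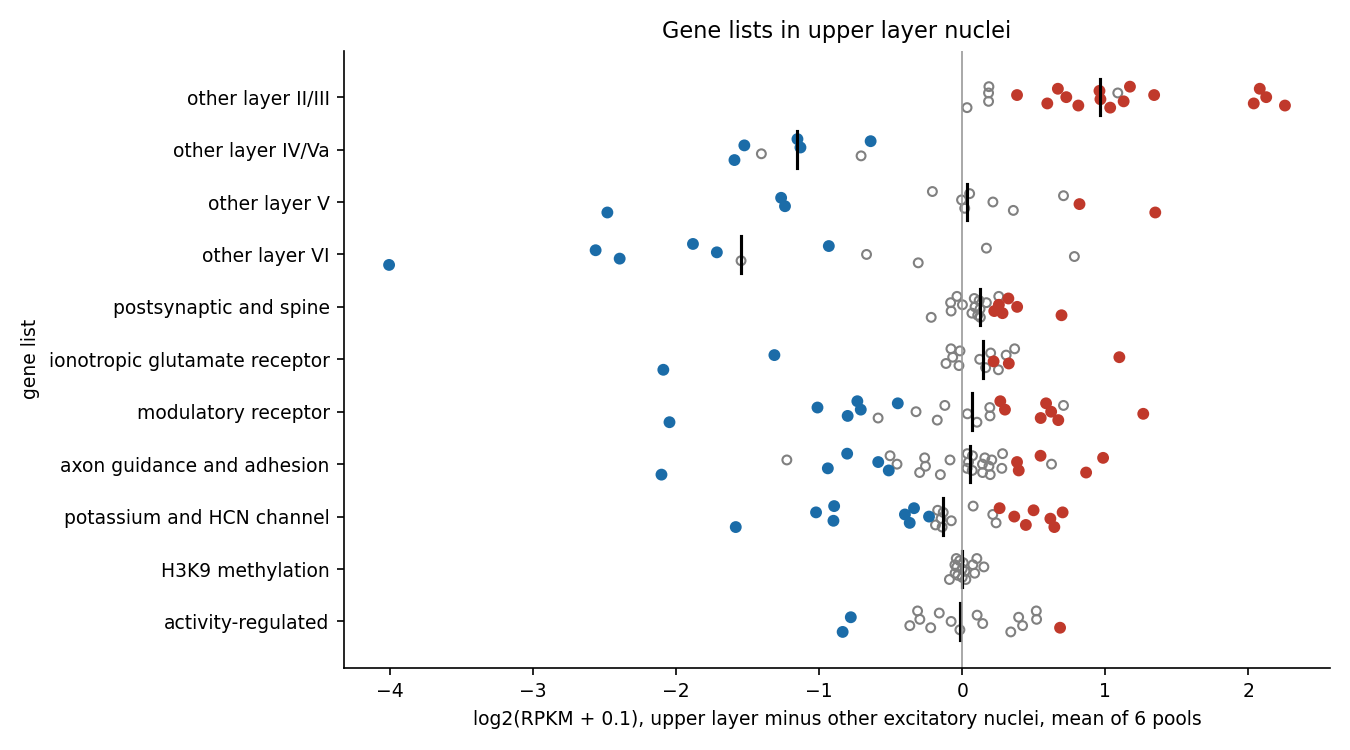
Difference in log2(RPKM + 0.1) between upper layer and other excitatory nuclei, mean of 6 pools, for each tested gene of 11 lists, with filled points for genes past an adjusted p of 0.05 and a black bar at the median of the list. Layer II/III genes lie mostly above 0 with a median of 0.96, and layer IV/Va and layer VI genes mostly below it with medians of -1.15 and -1.54.

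Receptor genes differed in both directions. Counts of this and the following lists stand beside the 6.81% of all tested genes that were higher and the 6.78% that were lower. Unless a class is named, they are against all other excitatory nuclei together, and the split of a list can differ by class. Of 22 receptors for modulatory transmitters, 7 were higher and 6 lower, and 5 of these 13 calls held without any 1 pool. The muscarinic receptor gene *Chrm3* was at 14.1, 18.9 and 21.9 RPKM in members and 9.76, 11.5 and 14.9 in the others (0.62, adjusted p = 0.00396). *Htr1f*, a serotonin receptor gene, was at 0.957, 1.69 and 2.02 RPKM against 5.60, 6.93 and 8.36 (-2.05, adjusted p = 0.000404), and *Grm3*, a metabotropic receptor gene of the group coupled to inhibitory G proteins, at 13.7, 16.3 and 19.1 against 26, 28 and 31.7 (-0.80). Of these 3 genes only *Chrm3* overlapped between the groups.

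Among 16 ionotropic glutamate receptor genes, *Grin2d* (1.10), *Gria3* (0.33) and *Grin2b* were higher and the kainate receptor subunits *Grik3* and *Grik1* lower. *Grik3* was at 6.03, 7.12 and 9.11 RPKM in members and 22.7, 33.6 and 40.2 in the others (-2.09, SE 0.13, adjusted p = 0.000404), with no overlap, and *Grik1* differed by -1.31. The call for *Grin2b* was lost without some single pools. Against the layer 4/5a class 9 of the 16 were higher and 2 lower, beside 8.26% and 6.56% of all tested genes. Against the layer 5 class 1 was higher and 2 lower (all tested genes 5.05% and 4.81%). Against the layer 6 class 5 were higher and 4 lower (13.6% and 9.07%). Of 20 postsynaptic and spine genes, 6 were higher and none lower (median 0.12), led by the Rac activator gene *Tiam1* (0.69) and by *Camk2a*, the calcium/calmodulin kinase of spines (0.38), and 3 of the 6 calls were lost without some single pools. Against the layer 4/5a class 4 of the 20 were higher and 1 lower, and *Camk2a* did not pass.

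Of 24 potassium and HCN channel genes, 7 were higher and 8 lower, and 10 of the 15 calls held without any 1 pool. The delayed rectifier genes *Kcnb2* (0.70) and *Kcnc1* (0.62) and the A-type channel gene *Kcnd3* (0.50) with its partner *Kcnip4* (0.64) were higher. *Kcnk2*, which encodes a mechanosensitive two-pore channel, was at 0.846, 1.46 and 2.25 RPKM in members and 4.04, 4.28 and 6.72 in the others (-1.58, SE 0.11, adjusted p = 0.000546), and it was lower than in each of the 3 classes taken alone. *Kcnn2*, a calcium-activated channel gene, was lower as well (-0.90).

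Axon guidance and adhesion genes were split, with 5 of 32 higher and 5 lower, and 5 of the 10 calls held without any 1 pool. *Slit3*, a repulsive ligand gene, was at 30.9, 35.4 and 42.2 RPKM in members and 13.7, 19.6 and 25.3 in the others (0.87, adjusted p = 0.00122), and *Ntng2*, a netrin-G gene, differed by 0.98. *Sema3e* (-2.10), the semaphorin co-receptor gene *Nrp1* (-0.94) and the netrin receptor gene *Dcc* (-0.80) were lower. The split differed by class, with 9 higher and 6 lower against the layer 4/5a class (8.26% and 6.56% of all tested genes). It was 3 and 8 against the layer 5 class (5.05% and 4.81%) and 15 and 6 against the layer 6 class (13.6% and 9.07%).

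Against all other excitatory nuclei, none of 16 H3K9 methylation genes and none of 4 tested inflammasome genes passed the limma test, with medians of 0.00 and 0.15. No H3K9 methylation gene passed against any single class either, while 1 inflammasome gene, *Nlrc4*, was higher than in the layer 5 class (0.89). Of 4 complement protease genes *C1rb* was lower (-0.91, adjusted p = 0.0108), and against the layer 4/5a class its near copy *C1ra* (-1.35) and *C1rb* (-1.55) were, with a list median of -1.28. Of 17 activity-regulated genes *Bdnf* was higher (0.68) and *Egr1* (-0.84) and *Arc* (-0.78) lower, and each of these 3 calls was lost without some single pools. These 3 of 17 lie near the 13.6% of all tested genes that differed. Against the layer 4/5a class 3 of the 17 were higher and 2 lower, beside 8.26% and 6.56% of all tested genes. Of 10 general excitatory genes *Slc17a6* (0.76), *Neurod1* (0.70) and *Camk2a* were higher. Against the layer 4/5a class none of these 10 genes passed, with a list median of -0.18.

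The marker lists of other cell types were summed in members. The summed level of 19 inhibitory neuron genes was 12.6, 13.3 and 30.1 RPKM in the lowest, median and highest member pool, against a median of 902 in inhibitory nuclei. That of 9 microglia genes was 5.87, 7.49 and 10.5 RPKM (microglia 3091), and that of 9 oligodendrocyte genes 10.4, 15.9 and 20.4 RPKM (oligodendrocytes 3706). The oligodendrocyte sum of members was above that of the other excitatory nuclei (10.3, 12.4 and 17.8 RPKM) in 6 of 6 pools. The sum over 8 astrocyte genes was 21.1, 28.7 and 40.2 RPKM in members and 40.9, 55.5 and 90.1 RPKM in the other excitatory nuclei. *Slc1a2*, a glutamate transporter gene (-1.17), and *S100b* (-1.24) were lower in members. *Slc1a2* alone was at a mean of 22.3 RPKM in members and 50.9 in the others. Of the 8 genes 3 had a higher mean in members. Of 5 tested genes 3 did not pass, and the median log2 difference of the list was -0.21. No nuclei were labelled as astrocytes, and the median of this sum in inhibitory nuclei was 11 RPKM. *Adarb2* of the inhibitory list (0.60), *Mbp* of the oligodendrocyte list (0.41) and *Pecam1* of the vessel list (-0.39) passed the test with all pools, and each lost its call without some single pools. None of 4 tested microglia genes passed, *Ctss* of that list was listed at 0 in 4 of the 6 member pools, and *Olig1* of the oligodendrocyte list was at most at 0.369 RPKM in members. The part of the lower astrocyte and the higher oligodendrocyte sum in the other differences was not tested.

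For genotype, members of the Δ/+ and WT pools were compared over 4 pools in limma with the plate format as a term, which leaves 1 residual degree of freedom. Of 23029 tested genes, 0 (0%) passed an adjusted p of 0.05 in limma (lowest 0.587). Without adjustment, 591 genes (2.57%) were higher and 1339 (5.81%) lower in Δ/+ members at p under 0.05. Whether a genotype difference in members was unlike that in the other excitatory nuclei was tested in the same way, and 0 genes passed (lowest adjusted p = 0.844, with 532 genes, 2.31%, higher and 829, 3.6%, lower at an unadjusted p under 0.05). The names of the 384-well WT nuclei hold another code than those of the other 3 384-well pools. The labels do not say what the code stands for, and code and genotype cannot be told apart there. The genes below are those with the largest difference of like sign in both formats, which fixes their direction, and their values are a description. A log2 ratio of at least 1 in both formats held for 0.195% of tested genes, and of at most -1 for 0.543%.

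*Xlr3b*, an X-linked gene of a family with near copies, was at 0.351 RPKM in WT and 4.26 in Δ/+ members of the 96-well plates and at 0.00794 and 0.782 in the 384-well plates. The log2 differences were 3.27 and 3.03 (unadjusted p = 0.000148, adjusted p = 0.587), and its iTg and Δ/+;iTg members were at 0.570 and 1.18 RPKM, nearer to Δ/+ than to WT. *Nxf7*, an mRNA export factor family gene, was at 0.651 and 6.30 RPKM in the 96-well and 1.29 and 5.95 in the 384-well plates, with 4.45 in iTg and 1.76 in Δ/+;iTg. *Phf21b*, a PHD finger protein gene, was at 4.38 and 15.4, and at 7.92 and 20.1 RPKM, with 18.2 in iTg and 15.4 in Δ/+;iTg members. For these genes the iTg value lay nearer to the 384-well Δ/+ value than to WT, which held for 5 of the 10 genes named as higher. Over all tested genes it held for 54.2%. The iTg mice, by their labels, had no deleted *Ehmt1* allele.

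Among the genes lower in Δ/+ members, *Gadd45g*, a stress-inducible growth arrest gene, was at 3.27 RPKM in WT and 0.478 in Δ/+ of the 96-well plates, and at 15.5 and 3.26 in the 384-well plates, with 3.10 in iTg and 2.85 in Δ/+;iTg. *Pcp4*, a calmodulin regulator gene, was at 2.86 and 0.622, and at 2.34 and 0.489 RPKM, with 0.312 in iTg and 1.11 in Δ/+;iTg. *Baiap3* was at 21.8 and 4.32, and at 24.9 and 7.13 RPKM, with 10.2 in iTg and 5.59 in Δ/+;iTg. The WT pool was the highest in each format for these 3 genes, and all had an adjusted p of 0.587 in limma. Within the members with *Otof* above 0, the differences of *Baiap3* were -2.06 and -1.78 on the log2 scale, and within those without it -3.80 and 0.03.

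Of the 10 genes named as higher, iTg lay nearer to Δ/+ than to WT for 5, and of the 10 named as lower for 7, beside 54.2% over all tested genes. Within the 3 sample-name codes that held both 96-well genotypes, all 3 differences had the sign of the whole for 8 of 10 genes in either direction. The codes are parts of the 96-well nuclei that chose these genes, so this likeness of sign follows in part from the choice and is no separate support. In the other excitatory nuclei, which come from the same pools, the difference had the same sign in both formats for 8 and 7 of the 10. The share of all tested genes with such signs was not worked out for either count.

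**Figure D4:**
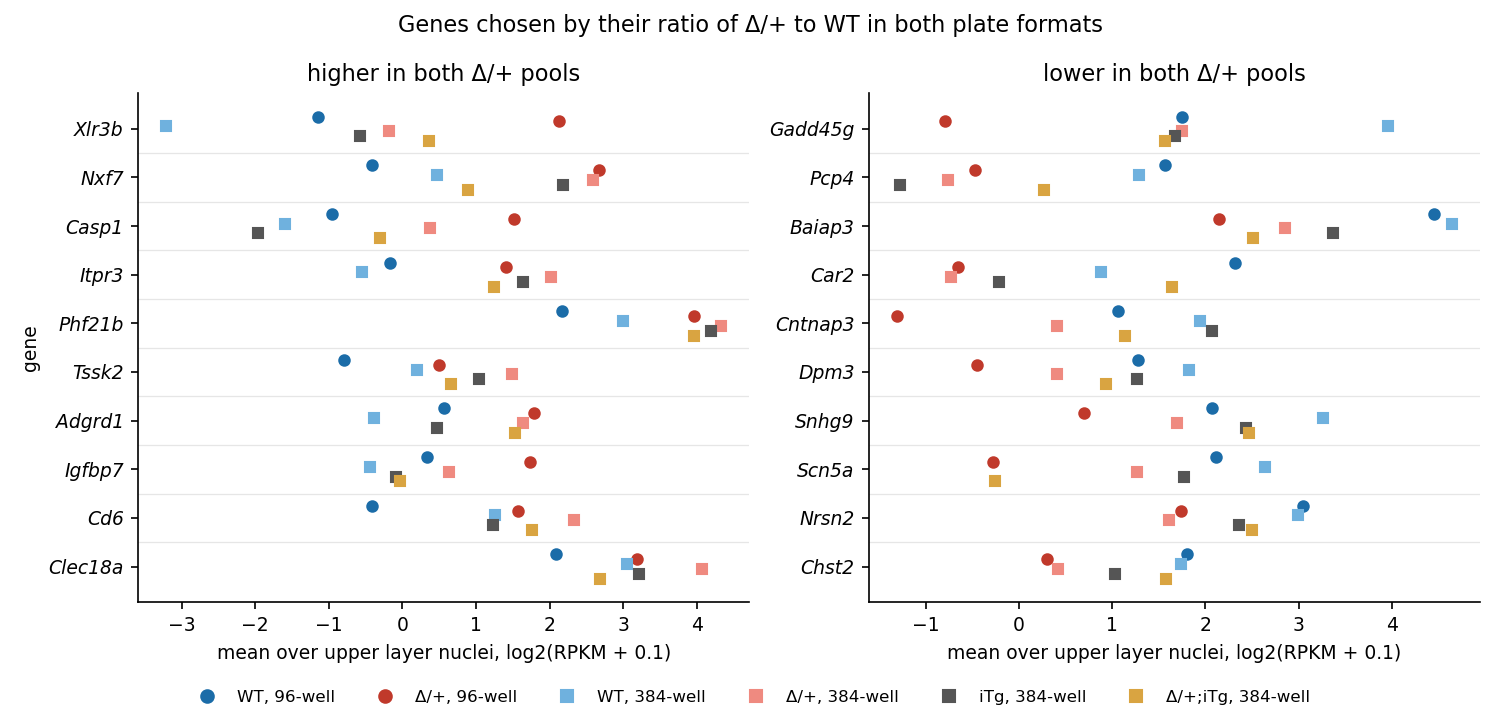
Mean level over upper layer nuclei, as log2(RPKM + 0.1), in each of the 6 pools for the 10 genes named as higher (left) and the 10 named as lower (right) in Δ/+ than in WT. The iTg value lies nearer to Δ/+ than to WT for 5 of the higher and 7 of the lower genes, and none of the 20 passes the adjusted threshold.

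*Ehmt1* was at 17.5 RPKM in WT and 30.1 in Δ/+ members of the 96-well plates, at 18.2 and 28.6 in the 384-well plates, and at 21.1 in iTg and 32.8 in Δ/+;iTg, so both pools labelled Δ/+ were above WT (log2 differences 0.77 and 0.65). A gene-level value does not separate the deleted part of the transcript or the transgene from the rest, and so it checks no label. *Ehmt2*, the gene of G9a, was at 23.9 and 24.8, 77.8 and 72.1, 66.3 and 49.2 RPKM in the same order.

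Fixed lists were read against the 2.57% and 5.81% of all genes that were higher or lower without adjustment, and no member of any list passed the adjusted threshold. Of 17 activity-regulated genes, 7 had an unadjusted p under 0.05 as lower in Δ/+ members (*Fosb*, *Jun*, *Junb*, *Egr1*, *Egr2*, *Egr4* and *Arc*) and 1, *Homer1*, as higher, and 9 were lower in both formats, which holds for 33.2% of all tested genes. *Egr1*, an immediate early transcription factor gene, was at 4.50 and 2.20 RPKM in the 96-well WT and Δ/+ members and at 29.4 and 11.2 in the 384-well plates, with 9.69 in iTg and 6.97 in Δ/+;iTg. *Fos* was at 1.24 and 1.70, and at 23 and 3.54 RPKM, with 4.81 and 3.47. The 384-well WT pool stood above the other 3 pools of its format for both genes, and that pool had its own code in the sample names.

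Of 10 layer VI genes 5 were lower by the unadjusted p (*Ccn2*, *Rprm*, *Hs3st4*, *Nr4a2* and *Rxfp1*), and of 31 axon guidance and adhesion genes 6 were lower and 18 lower in both formats. Of 4 complement protease genes, 3 were higher (*C1s1*, *C1ra* and *C1rb*), of which *C1ra* and *C1rb* are near copies. Of 20 layer II/III genes 11 were higher and 5 lower in both formats, beside 22.7% and 33.2% of all tested genes, and only *Agmat* had an unadjusted p under 0.05. Of 16 H3K9 methylation genes only *Ehmt1* did. In the spine list *Homer1* alone had a p under 0.05, of 20 genes.

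*Casp1*, the gene of the inflammasome protease that activates interleukin-1 beta (mm10, chr9:5298517-5307265), was among the named higher genes. In members it was at 0.417 RPKM in WT and 2.77 in Δ/+ of the 96-well plates, at 0.232 and 1.20 in the 384-well plates, and at 0.156 in iTg and 0.712 in Δ/+;iTg. The log2 differences were 2.47 and 1.97 (unadjusted p = 0.000926, adjusted p = 0.587). Of the other inflammasome genes *Il18* was lower by the unadjusted p, and *Il1b* was above 0 in 1 member of the 96-well and 3 of the 384-well Δ/+ pool only.

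A member was called *Casp1*-positive with a value above 0. In the 96-well plates this held for 7.84% of WT (4 of 51, 2.18 to 18.9) and 32.7% of Δ/+ members (17 of 52, 20.3 to 47.1). In the 384-well plates it held for 5.17% of WT (3 of 58, 1.08 to 14.4), 20% of Δ/+ (16 of 80, 11.9 to 30.4), 6.15% of iTg (4 of 65, 1.70 to 15) and 9.80% of Δ/+;iTg members (5 of 51, 3.26 to 21.4). The Δ/+ interval lies above the WT interval in the 96-well plates and overlaps it in the 384-well plates. Each interval holds the error of counting nuclei in 1 pool alone and measures no spread between pools of a genotype. Per sample-name code shared by both 96-well genotypes, positive members were 0 of 11 in WT against 4 of 13 in Δ/+, 0 of 16 against 6 of 15, and 3 of 14 against 3 of 12.

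Over all pools 13.7% of members were positive (49 nuclei), 16.7% of the layer 4/5a class (61), 4.28% of the layer 5 class (14) and 0.730% of the layer 6 class (2). The order of the first 2 differed by format, with 20.4% of members and 34.5% of the layer 4/5a class in the 96-well plates and 11% and 8.7% in the 384-well plates. Their median read totals were 343156 and 349192 in the 96-well plates and 416881 and 319269 in the 384-well plates. The part of read depth in this order was not tested. In oligodendrocytes of the 96-well plates, taken as cells that should lack the transcript, 0.694% were positive (1 nucleus), at a median of 462938 reads against 343156 in members, and in 96-well microglia, which express it, 66.2% were (45 nuclei), at a median of 502838 reads. The share in members was above that in the layer 5 class by a mean of 9.32 points and above the layer 6 class by 12.8 points, in 6 of 6 pools each. An exact two-sided sign-flip test over pools gave p = 0.03125 for both, the smallest it can give with 6 pools, or 0.0625 after adjustment over the 4 comparisons made. Against the layer 4/5a class the mean difference was -3.49 points, with 3 of 6 pools above 0 (exact p = 0.469), and against all other excitatory nuclei 5.62 points (exact p = 0.125, adjusted 0.167, 4 of 6 pools). The 2 pools below 0 in the last comparison were the WT pools.

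**Figure D5:**
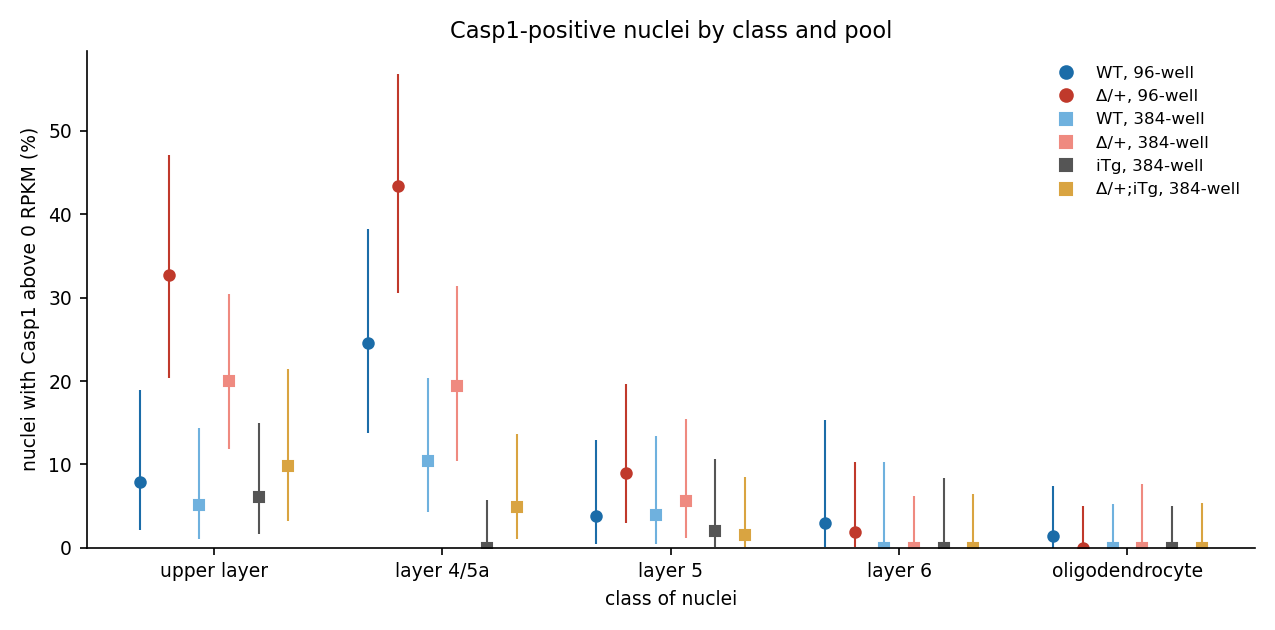
Percent of nuclei with *Casp1* above 0 RPKM in each pool, for upper layer nuclei, the other excitatory classes and oligodendrocytes, with exact 95% Clopper-Pearson intervals as bars. The bars hold counting error within a pool alone. The 384-well oligodendrocytes, all at 0%, had a median of 52666 reads against 416881 in 384-well upper layer nuclei, so their zeros say less. Upper layer nuclei stand at 32.7% and 20% in the Δ/+ pools and between 5.17% and 9.80% in the other 4 pools.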

How the data were processed

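The rule took 357 of 1324 excitatory nuclei as members and left 366 in the layer 4/5a, 327 in the layer 5 and 274 in the layer 6 class. Nuclei labelled by genotype, plate format and cell type kept those groups. The authors trimmed reads with Fastq-mcf, mapped them to mm10 with HISAT2 (version 2.0.4 in the submitters' notes), counted them per gene with featureCounts (Subread 1.5.0) and deposited RPKM values for 52636 genes. The study states default counting parameters, which use no strand, so reads of overlapping or antisense genes cannot be told apart. All deposited columns matched 1 sample each. Read totals of nuclei were recovered from the steps between low values. Within 0.001 reads, a median of 30.1% of the values above 0 in a 96-well nucleus and 25.9% in a 384-well nucleus were not whole reads, and all were whole hundredths of a read, so some reads had been divided, a setting not stated. Symbols were available for 52489 genes and GENCODE M21 coordinates on mm10 for 49121. Where the identifier versions differ, no coordinate is given.

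RPKM values were averaged over the nuclei of a class in each pool and taken as log2(mean + 0.1), which understates differences of low genes. For the layer comparisons, genes above 0 in 5% or more of all excitatory nuclei of each pool were tested. For genotype the limit was 10% of the WT and Δ/+ members of each plate format. These genes entered limma 3.58.1 (R 4.3.3), and p-values were adjusted by Benjamini and Hochberg over all genes of a comparison. The 14 genes of the rule were not tested. In the layer comparisons each pool is its own block, since the difference was taken within it. Intervals of shares are exact Clopper-Pearson intervals. Steps were tested on simulated data.

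Named genes were the 12 highest and 12 lowest log2 differences among genes past the threshold and of like direction in 6 pools, 4 and 4 for each single class, and for genotype the 10 and 10 with the largest smaller ratio of the 2 formats and a mean of at least 1 RPKM, passing over predicted genes, pseudogenes, mitochondrial genes and small RNAs. In addition *Casp1*, *Il1b*, *Ehmt1*, *Ehmt2* and the called genes of the lists were named, and *Fos* and *Il18* were chosen after their values were seen. Members, gene lists and tests were chosen with earlier results of these data known. Alternatives were another pseudocount, other filters and memberships, centring, each format alone and leaving out each pool. Some genes of the lists are counted but not reported here by name.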

Additional observations from a re-analysis of the deposited data

Results flagged for a closer look

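Among the per-pool differences of the named and listed genes between upper layer and other excitatory nuclei, 5 genes, 4.5% of those checked, had a pool far from the other 5 by Dixon's criterion, and chance gives about 1 in 20. *Trbc1* was at -4.47 on the log2 scale in the 96-well WT pool, beside -3.05 to -2.60 in the others. *Cux1* was at 1.10 in the 384-well Δ/+ pool, beside 0.60 to 0.77. *Epha6* was at 1.19 in the 384-well WT pool, beside 0.23 to 0.56, and its call was lost without 4 of the 6 pools taken in turn. *Kcnd3* was at 0.19 in the 96-well WT pool, beside 0.50 to 0.66, and *Kcnk2* at -2.13 in the 384-well Δ/+ pool, beside -1.59 to -1.29.

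The *Casp1*-positive share of upper layer nuclei lay above that of the other excitatory nuclei of the pool in both Δ/+ pools, by a mean of 12.5 points, and below it in both WT pools, by a mean of -2.17 points. It was also above it in the iTg pool, by 5.51 points, and in the Δ/+;iTg pool, by 7.57 points. Against the layer 4/5a class alone the differences were -16.7 (WT) and -10.6 (Δ/+) points in the 96-well pools. In the 384-well pools they were -5.28 (WT), 0.645 (Δ/+), 6.15 (iTg) and 4.89 (Δ/+;iTg). In thinned nuclei the 384-well Δ/+ shares were 14.37% in members and 14.40% in the layer 4/5a class. The positive share of the layer 4/5a class was also higher in Δ/+ than in WT, at 43.3% and 24.5% (96-well) and 19.4% and 10.4% (384-well). The difference between the genotypes was not tested, since 2 pools against 2 allow no exact p under the threshold.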

How the results depend on the processing

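The pool was the replicate, so 6 values bear each layer comparison and 4 the genotype comparison, and the code in the sample names and genotype cannot be told apart in the 384-well plates. With the 384-well pools alone, 1210 genes passed against the other excitatory nuclei, 1172 against the layer 4/5a class, 463 against layer 5 and 2992 against layer 6. With the 2 96-well pools alone, limma passed 0 genes in each (unadjusted p under 0.05 for 4002, 4139, 3703 and 5355). Against layer 5, 1449 genes passed without a filter and 3780 with the mean of log2 values, and leaving out each pool gave 1301, 1395, 1442, 1464, 1599 and 1674. Leaving out each pool gave 2310 to 2458, 2505 to 2845 and 4340 to 4843 genes in the other 3 comparisons. Of 2648 alternatives for single genes, 0 reversed and 376 lost the threshold, 42 of them with the 384-well pools alone. The *Casp1* difference stayed between 3.8 and 7.46 points, not past the threshold, in each alternative, including nuclei with at least 2 reads and thinned nuclei. The genotype comparison passed 0 genes in each alternative that could be tested, and each format alone left no residual degrees of freedom. The layer comparisons were taken within the pool. No paired analysis was possible because the genotype pools carry no replicate numbers.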

Other observations

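*Otof* was above 0 in 55.7% of members, and these were set beside the rest, a split chosen after the data were seen and described without a test. Of 24864 tested genes, 7.37% were higher and 6.09% lower in the *Otof*-positive nuclei of all 6 pools, and 0.897% and 0.676% did not overlap. The 8 highest and 8 lowest of the like-direction genes were picked by size, passing over predicted genes and the like, which fixes their direction, and 8 of these 16 did not overlap. The *Otof*-positive nuclei had a median of 402831 reads and the others 337855. *Baiap3* was at 9.34, 13.9 and 39.3 RPKM in the lowest, median and highest pool of *Otof*-positive nuclei and at 0.346, 1.14 and 6.12 RPKM in the others. *Ptpn14* was at 3.37, 4.0 and 8.31 RPKM against 0.0231, 0.283 and 1.37. The chitinase gene *Chia1* was at 2.90, 4.33 and 5.15 RPKM against 0, 0.415 and 0.776. The calcium release channel gene *Itpr3* lay the other way, at 0.0703, 0.145 and 0.740 RPKM against 1.40, 4.33 and 10.1, as did *Rab37*, a vesicle GTPase gene, at 0, 0.118 and 0.170 against 1.02, 2.07 and 2.42. For these 5 genes the groups did not overlap, whereas for *Col23a1*, *Matn4* and *Scara3*, picked in the same way, they did. *Rasgrf2* and *Stard8* were present in both, with medians of 47.8 and 30 RPKM for *Rasgrf2* and 15 and 13.3 for *Stard8*.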
